A study of Mus musculus with 9 samples.

Results

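Stress-pathway transcripts were compared between KO-c43, a Nat10 knockout line of 4T1 cells, and unedited 4T1 cells (WT). 4T1 is a mouse mammary tumour line. Nat10 encodes an enzyme that acetylates cytidine in several kinds of RNA. The genes were those with at least 10 normalized counts in at least 3 of the 6 libraries of these groups, 17020 of the 22469 genes in the table. From them, 15 lists of stress genes were drawn, which held 597 different genes. Of these, 570 were in the table used here and 547 passed the filter. Each group was grown untreated as 3 biological replicates in dishes of 6 cm seeded with 300000 cells and lysed after 48 h. A further knockout line, KO-c19, was grown in the same way and is used where the lines are compared. The labels name no guide, no edited exon and no clone history, so the replicates are cultures of 1 knockout line and do not stand for the spread between separate edits.

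Cells meet damage, starvation and misfolded protein with a small number of transcriptional programmes. In the integrated stress response, kinases that sense amino acid lack, heme lack, viral RNA or endoplasmic reticulum (ER) stress phosphorylate the initiation factor eIF2, general translation slows, and the transcription factor ATF4 is made and switches on amino acid supply. The unfolded protein response guards the ER, HSF1 the cytosol, NRF2 the redox state, HIF the oxygen supply, p53 the genome, and NF-kappaB and interferon factors answer microbial and inflammatory signals. Many of these programmes are measured in tumour cells by the transcripts of their targets.

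Values are normalized counts per gene. Library totals were between 45628576 and 50123222. As read from the spacing of low values, 1 read stood for 0.822 to 1.11 of these units, so that about 41600000 to 55600000 reads lay behind a library. A change is the mean log2(normalized count + 1) of KO-c43 less that of WT, with the standard error (SE) of limma and n = 3 libraries in each group. Folds come from the same scale and are too small for genes with low values. Nat10 itself stood at 27.05% of its WT mean in KO-c43 (exact permutation test, two-sided, p = 0.1, the smallest that its 20 divisions allow). With a limma adjusted p of 0.05 as the threshold, 32.9% of the tested genes rose in KO-c43 and 34.0% fell, so that 66.9% passed in all. The knockout and WT libraries did not overlap for 71.8% of genes. An increase of at least 2-fold was called for 7.9% and a fall of at least 2-fold for 6.15%. The median change of all tested genes was −0.0003 on the log2 scale. The residual 18S ribosomal RNA, Rn18s, took 2.06% to 4.40% of normalized counts in WT and 1.27% to 2.59% in KO-c43, and its part in the results was not tested.

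The 6 epithelial markers were split. The keratin genes Krt8 and Krt18 were abundant in every library and rose, Krt8 from 24715, 26368 and 25738 in WT to 28899, 28460.3 and 29393 in KO-c43 and Krt18 from 28283, 30288 and 30958 to 33255, 33254 and 34458. Krt19, Epcam, Cdh1 and Cdh3 fell, most of all in counts the cadherin gene Cdh1, from 25899, 26535 and 26352 to 3679, 3738 and 3774. The summed level of the 6 ran from 89977 to 94869 in WT and from 67615 to 69878 in KO-c43. Of the 6 leukocyte markers 2 were in the table. Ptprc, the pan-leukocyte marker, had 0.902, 1.11 and 1.10 in WT and 0, 1.80 and 1.05 in KO-c43, and Cd68, a lysosomal gene of macrophages that other cells also express, had 152, 209 and 186 and 174, 189 and 214. Of the 4 endothelial markers Pecam1 was in the table, with 4.51, 5.55 and 10.96 and 1.94, 2.71 and 2.09. Of the 6 fibroblast and pericyte markers 3 were in the table, and their summed level ran from 296 to 316 in WT and from 408 to 508 in KO-c43. Within that sum Pdgfra had 263, 272 and 282 and 458, 398 and 493, higher in every knockout library, while Col1a1 had 31.6, 22.2 and 31.8 and 5.81, 5.41 and 8.38, lower in every one. The part of these markers in the results was not tested. In libraries of whole cultures, fewer cells that express a gene and less RNA of it per cell cannot be told apart.

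The stress lists did not move as a block. The shares that fell were highest in 3 lists. In the NF-kappaB and inflammatory list 23 of 30 tested members fell (76.7%, beside 34.0% of all tested genes). The others were mitochondrial protein stress with 16 of 23 genes (69.6%) and the integrated stress response with 33 of 49 (67.3%). The shares that rose were highest for 31 of 47 autophagy and lysosome genes (66%, beside 32.9% of all tested genes) and 19 of 31 cell death regulators (61.3%), followed by 7 of 13 osmotic stress genes (53.8%) and 19 of 37 hypoxia genes (51.4%). The ER unfolded protein response and the NRF2 list were split almost evenly, with 21 rising and 20 falling of 51 and 25 rising and 26 falling of 57. The lists share 16 genes, and their members were chosen with earlier results of these data known, so that no list was tested as a set.

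**Figure D1:**
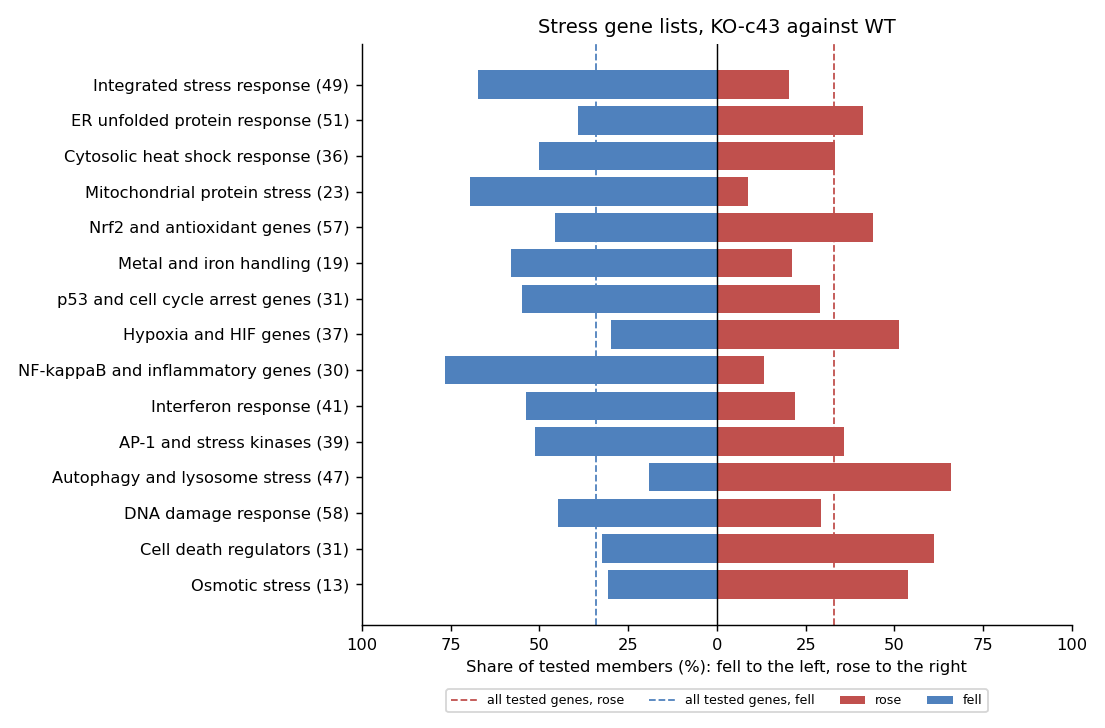
The horizontal axis gives the share of tested members in percent that rose (red, right) or fell (blue, left) in KO-c43 against WT, for 15 stress gene lists with the number of tested members in brackets; dashed lines mark the shares over all 17020 tested genes, 32.9% and 34.0%. The NF-kappaB list reaches furthest to the left with 76.7% and the autophagy list furthest to the right with 66%.

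The integrated stress response list was mostly lower in KO-c43. Of its 49 tested members 10 rose (20.4%, beside 32.9% of all tested genes), 33 fell (67.3%, beside 34.0%) and 6 did not pass. The median change was −0.36 on the log2 scale beside −0.0003 over all tested genes. Atf4, the central transcription factor, gave 10789.6, 11543 and 11357 normalized counts in WT and 6844, 6627 and 6796 in KO-c43. Every knockout library lay below every WT library, a fall by 0.73 ± 0.037 (SE) on the log2 scale (limma adjusted p = 6.95e-12). The value is a transcript level, and since ATF4 is controlled mainly at translation, its protein was not measured by it.

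The factors that act beside ATF4 went separate ways. Atf3, an immediate stress factor, had 291, 307 and 398 in WT and 19.4, 20.8 and 27.2 in KO-c43, and fell by 3.83 ± 0.18 (SE) (limma adjusted p = 3.7e-12). Atf5, which relays mitochondrial and ER stress, had 602, 645 and 615 in WT and 1632, 1673 and 1629.8 in KO-c43, a change of 1.41 ± 0.05 (SE) (limma adjusted p = 6.62e-14). Ddit3, which encodes the pro-apoptotic factor CHOP, had 106, 129.9 and 113 in WT and 167, 176 and 175 in KO-c43 and changed by 0.57 ± 0.11 (SE) (limma adjusted p = 0.000128). For each of these 3 genes the groups did not overlap, with Atf3 low and Atf5 and Ddit3 high in all knockout libraries. Cebpb, a bZIP partner of ATF4, rose 1.84-fold, and Nupr1, a small chromatin protein induced by stress, fell 2.47-fold.

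Genes of amino acid supply and charging did not all move together. Of 5 serine and folate genes 4 fell (80%, beside 34.0% of all tested genes), and of 7 amino acid synthesis genes 3 rose and 3 fell (42.9% each). All 10 tested aminoacyl-tRNA synthetase genes fell. Aars, the alanyl-tRNA synthetase gene, had 15641, 15699.8 and 16101 in WT and 8114, 8442 and 8385 in KO-c43 and fell by 0.93 ± 0.036 (SE) (limma adjusted p = 2.31e-13), and the smallest fall among the 10 was that of Nars, 1.17-fold. Mthfd2, the mitochondrial folate enzyme, had 4889, 5100.2 and 5064 in WT and 1798, 1765 and 1872 in KO-c43 and fell by 1.47 ± 0.045 (SE) (limma adjusted p = 9.21e-15). Asns, asparagine synthetase, went from 4918, 5218 and 5024 to 3239.7, 3436 and 3485, a fall of 1.49-fold (limma adjusted p = 1.62e-09). In these genes all knockout libraries were below all WT libraries. Shmt2, the mitochondrial serine hydroxymethyltransferase gene, fell 1.76-fold. Phgdh, the first enzyme of serine synthesis, had 6776, 6894 and 6934 and 6457, 6305 and 6691 and did not pass (log2 difference −0.08 ± 0.04 (SE), limma adjusted p = 0.0766).

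Transporters of amino acids were divided 4 to 4 (50% each, beside 32.9% of all tested genes that rose and 34.0% that fell). Slc7a5 had 12035, 12634 and 12197 in WT and 6221, 6174 and 5939 in KO-c43, a fall of 2.01-fold (limma adjusted p = 6.86e-13), and its heavy chain Slc3a2 fell 1.8-fold. The cystine importer Slc7a11 had 416, 397 and 433 in WT and 592, 666 and 666 in KO-c43 and rose by 0.62 ± 0.07 (SE) on the log2 scale (limma adjusted p = 3.52e-07). Slc7a5 was thus low and Slc7a11 high in all 3 knockout libraries. The proline synthesis gene Pycr1 rose 1.75-fold, while Aldh18a1, which acts upstream of it, fell 1.59-fold.

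The feedback genes fell where they passed. Trib3, a pseudokinase that restrains ATF4, had 361, 456 and 419 in WT and 189.8, 175 and 209 in KO-c43 and fell by 1.10 ± 0.1 (SE) (limma adjusted p = 2.39e-08). Chac1, which degrades glutathione, had 558, 690.4 and 758 and 397, 346 and 319 and fell by 0.91 ± 0.11 (SE) (limma adjusted p = 2.72e-06). Both genes were low in all knockout libraries. Among the eIF2 kinases, Eif2ak1, the heme-regulated kinase, fell 1.49-fold and Eif2ak4, the sensor of uncharged transfer RNA, fell 1.13-fold. Eif2ak3, the ER kinase PERK, showed −0.00 ± 0.06 (SE) (limma adjusted p = 0.967) and Eif2ak2, the kinase of double-stranded RNA, −0.06 ± 0.056 (SE) (limma adjusted p = 0.33). Stc2, which encodes the secreted stanniocalcin 2, had 101, 113 and 128 in WT, whereas every KO-c43 library lists it at 0, so no fold is given.

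**Figure D2:**
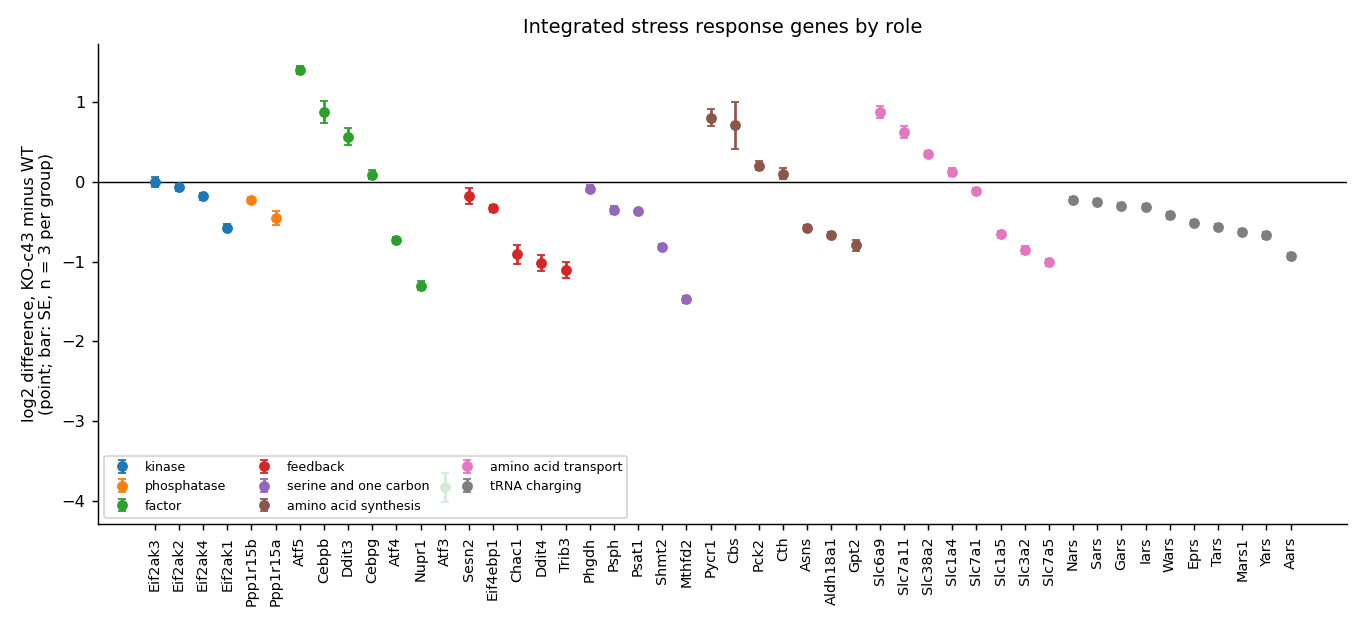
Points give the log2 difference of KO-c43 minus WT with its SE (vertical axis, n = 3 libraries in each group) for the tested integrated stress response genes, coloured by role and ordered within a role; Stc2, listed at 0 in KO-c43, is not drawn. The 10 tRNA charging genes all lie below 0, Atf5 is the highest point at 1.41 and Atf3 the lowest at −3.83.

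ATF4 binds with C/EBP partners at a composite element searched here as TGATGNAA (both strands). Promoter windows from 250 bases before to 50 after the start were taken from RefSeq (GRCm38.p6), where 42 of the 49 genes were found. The element was in 29.2% of the windows of these genes, beside 3.97% of all 32851 windows. Of the 14 genes with it, 4 rose and 10 fell in KO-c43, and of the genes without it 6 rose and 17 fell. Over all tested genes 32.9% rose and 34.0% fell. Shown are 2 genes that fell, Aars and Trib3, and 2 that rose, Pycr1 and Slc7a11, since the same letters stand in promoters of genes that moved apart. Capitals mark the matches, and the windows are read 5′ to 3′ on the strand of the gene. Aars is at chr8:111033592-111033891, plus strand; Trib3 at chr2:152344011-152344310, minus strand; Pycr1 at chr11:120643699-120643998, minus strand; and Slc7a11 at chr3:50443564-50443863, minus strand.
Aars: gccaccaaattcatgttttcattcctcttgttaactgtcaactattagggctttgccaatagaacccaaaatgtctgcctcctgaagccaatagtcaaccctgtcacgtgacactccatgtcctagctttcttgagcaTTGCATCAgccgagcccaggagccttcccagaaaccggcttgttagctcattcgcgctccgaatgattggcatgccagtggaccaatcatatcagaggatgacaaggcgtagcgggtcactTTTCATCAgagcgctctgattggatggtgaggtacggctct
Trib3: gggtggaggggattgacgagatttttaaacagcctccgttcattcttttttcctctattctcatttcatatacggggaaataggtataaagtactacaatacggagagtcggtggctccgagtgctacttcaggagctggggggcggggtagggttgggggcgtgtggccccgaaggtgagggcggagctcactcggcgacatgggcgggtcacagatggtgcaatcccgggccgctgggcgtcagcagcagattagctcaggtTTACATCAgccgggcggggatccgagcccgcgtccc
Pycr1: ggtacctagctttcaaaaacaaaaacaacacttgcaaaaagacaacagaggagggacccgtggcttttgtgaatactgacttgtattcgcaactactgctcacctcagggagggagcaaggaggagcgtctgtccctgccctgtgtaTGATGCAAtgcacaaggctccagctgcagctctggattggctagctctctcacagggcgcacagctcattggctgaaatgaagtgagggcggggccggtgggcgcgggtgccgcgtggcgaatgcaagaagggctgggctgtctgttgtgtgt
Slc7a11: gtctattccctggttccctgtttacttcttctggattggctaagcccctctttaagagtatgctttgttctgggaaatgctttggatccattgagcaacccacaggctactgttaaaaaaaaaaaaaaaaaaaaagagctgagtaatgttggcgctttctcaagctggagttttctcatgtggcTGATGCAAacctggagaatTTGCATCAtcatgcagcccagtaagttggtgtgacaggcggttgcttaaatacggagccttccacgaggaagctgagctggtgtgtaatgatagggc
A match is a description of letters, and binding was not measured.

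Genes of the ER unfolded protein response were divided, with 21 of 51 rising (41.2%) and 20 falling (39.2%). These shares stand beside 32.9% and 34.0% of all tested genes. The median change was 0.02, and no member fell past 2-fold (6.15% of all tested genes did). Xbp1, whose spliced transcript encodes the factor downstream of IRE1, had 1359.8, 1465 and 1577 normalized counts in WT and 2476, 2469 and 2599 in KO-c43. All knockout libraries were higher, a rise by 0.78 ± 0.05 (SE) (limma adjusted p = 1.96e-10); the gene sums do not separate the spliced form. Ern1, the IRE1 gene, rose 1.36-fold. The main ER chaperone Hspa5 (BiP) had 48609, 46093 and 45572 in WT and 38721, 41829 and 46089 in KO-c43, and the groups overlapped. Its fall by 0.15 ± 0.053 (SE) (limma adjusted p = 0.02) was lost when KO-c43 replicate 1 was left out (−0.09, limma adjusted p = 0.121), without KO-c43 replicate 2 (−0.15, 0.0538), without WT replicate 1 (−0.12, 0.0825) and without KO-c19 replicate 1 (−0.15, 0.0572). It was also lost in the 6 libraries of WT and KO-c43 alone (limma adjusted p = 0.07), with neither trend nor robust fit (0.0878), under scaling by totals (0.0749) and under quantile normalization (0.276).

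Within the list the lumenal chaperones were divided, with 6 of 14 rising (42.9%, beside 32.9% of all tested genes) and 8 falling (57.1%, beside 34.0%), Hspa5 among the latter. Of 10 disulfide genes 6 rose (60%) and 1 fell (10%). Dnajb11, a BiP cochaperone, had 3510.0, 3446 and 3428 in WT and 1921, 2047 and 2109 in KO-c43 and fell by 0.77 ± 0.042 (SE) (limma adjusted p = 2.08e-11). Ero1b, an oxidase that reloads protein disulfide isomerases, had 502, 441 and 370.4 in WT and 943, 923 and 979 in KO-c43 and rose by 1.12 ± 0.084 (SE) (limma adjusted p = 2.41e-09). Qsox1, a sulfhydryl oxidase of the Golgi and the secreted space, had 781, 935 and 834 and 1589, 1663 and 1643 and rose by 0.94 ± 0.061 (SE) (limma adjusted p = 2.39e-10). The groups did not overlap for these genes. Sdf2l1 fell 1.67-fold, the lectin chaperone gene Calr fell 1.26-fold, and Pdia4 and the prolyl isomerase gene Ppib rose 1.4-fold and 1.39-fold. For disposal of misfolded protein, Herpud1 went from 973, 1129.9 and 1108 to 790.1, 783 and 709 and fell by 0.49 ± 0.064 (SE) (limma adjusted p = 2.32e-06), while Edem1 and Erlec1 rose 1.42-fold and 1.52-fold.

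The ER stress element, searched as CCAAT, 9 of any base and CCACG on both strands, was in 20.4% of the windows of 44 genes found and in 0.119% of all windows. Of the 10 genes with it, 5 rose and 4 fell, and of the genes without it 14 rose and 11 fell. Over all tested genes 32.9% rose and 34.0% fell. Hspa5 (chr2:34771840-34772139, plus strand) and Ero1b (chr13:12565633-12565932, plus strand) are shown because both hold the element and only Ero1b rose.
Hspa5: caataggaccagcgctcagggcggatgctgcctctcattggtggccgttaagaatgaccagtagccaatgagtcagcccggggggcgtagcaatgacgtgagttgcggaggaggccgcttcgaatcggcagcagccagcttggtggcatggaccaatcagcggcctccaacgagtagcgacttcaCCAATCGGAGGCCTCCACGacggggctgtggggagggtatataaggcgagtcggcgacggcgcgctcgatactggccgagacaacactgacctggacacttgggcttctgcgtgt
Ero1b: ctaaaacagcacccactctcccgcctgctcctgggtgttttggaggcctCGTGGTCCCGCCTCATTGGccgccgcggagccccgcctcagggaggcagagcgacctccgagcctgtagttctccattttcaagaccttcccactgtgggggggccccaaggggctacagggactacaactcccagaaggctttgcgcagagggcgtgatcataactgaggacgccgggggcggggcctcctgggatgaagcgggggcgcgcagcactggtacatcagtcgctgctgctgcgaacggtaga

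Among cytosolic chaperone transcripts those of the HSP90 system were mostly lower and part of those of the HSP70 system higher in KO-c43. Of 36 tested genes 12 rose (33.3%, beside 32.9% of all tested genes), 18 fell (50%, beside 34.0%) and 6 did not pass, with a median change of −0.09. Hsf1, the master factor of the heat shock response, had 3289.7, 3505 and 3367 in WT and 2397, 2381 and 2299 in KO-c43, all lower, and fell by 0.52 ± 0.042 (SE) (limma adjusted p = 4.49e-09). Of the 8 genes of HSP90 and its partners, 7 fell (87.5%, beside 34.0% of all tested genes). Hsp90aa1, the inducible form, had 53260.5, 51164 and 52208 in WT and 36880.2, 34893 and 39302 in KO-c43 and fell by 0.50 ± 0.081 (SE) (limma adjusted p = 0.000323). Hsp90ab1, the constitutive form, had 180009, 181141 and 184163 and 129005, 124461 and 130543 and fell 1.42-fold. Stip1, which links HSP70 to HSP90, fell 1.48-fold, and Ahsa1, which activates the HSP90 ATPase, fell 1.5-fold. Cdc37, the kinase cochaperone, did not pass (0.02 ± 0.037 (SE), limma adjusted p = 0.587).

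In the HSP70 group 5 of 7 genes rose (71.4%, beside 32.9% of all tested genes) and 2 fell (28.6%, beside 34.0%). Hspa4l, an HSP110-type exchange factor, had 2586, 2469.6 and 2629 in WT and 7401, 7403 and 7502 in KO-c43 and rose by 1.54 ± 0.051 (SE) (limma adjusted p = 4.58e-14). Hsph1, also of the HSP110 type, had 13115, 13098 and 13342 and 19958, 19949 and 21686 and rose by 0.64 ± 0.037 (SE) (limma adjusted p = 4.53e-11). Hspa1b, the inducible HSP70, had 6626, 6528 and 6681 and 10663, 10437 and 10177 and rose by 0.66 ± 0.04 (SE) (limma adjusted p = 1.15e-10). All knockout libraries were above WT for the 3 genes. Hspa1b is uncertain, since its near-identical copy Hspa1a stayed below the filter and the counting could have split their reads. The constitutive genes Hspa8 and Hspa4 fell 1.42-fold and 1.53-fold. Of the J-domain genes, Dnajb4 had 804, 780.3 and 833 in WT and 1677, 1649 and 1766 in KO-c43 and rose by 1.07 ± 0.052 (SE) (limma adjusted p = 4.06e-12), and Dnaja2 fell 1.65-fold. The small heat shock gene Cryab had 669, 730.1 and 773 in WT and 235, 226 and 221 in KO-c43, lower in every library, and fell by 1.67 ± 0.081 (SE) (limma adjusted p = 4.25e-12).

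**Figure D3:**
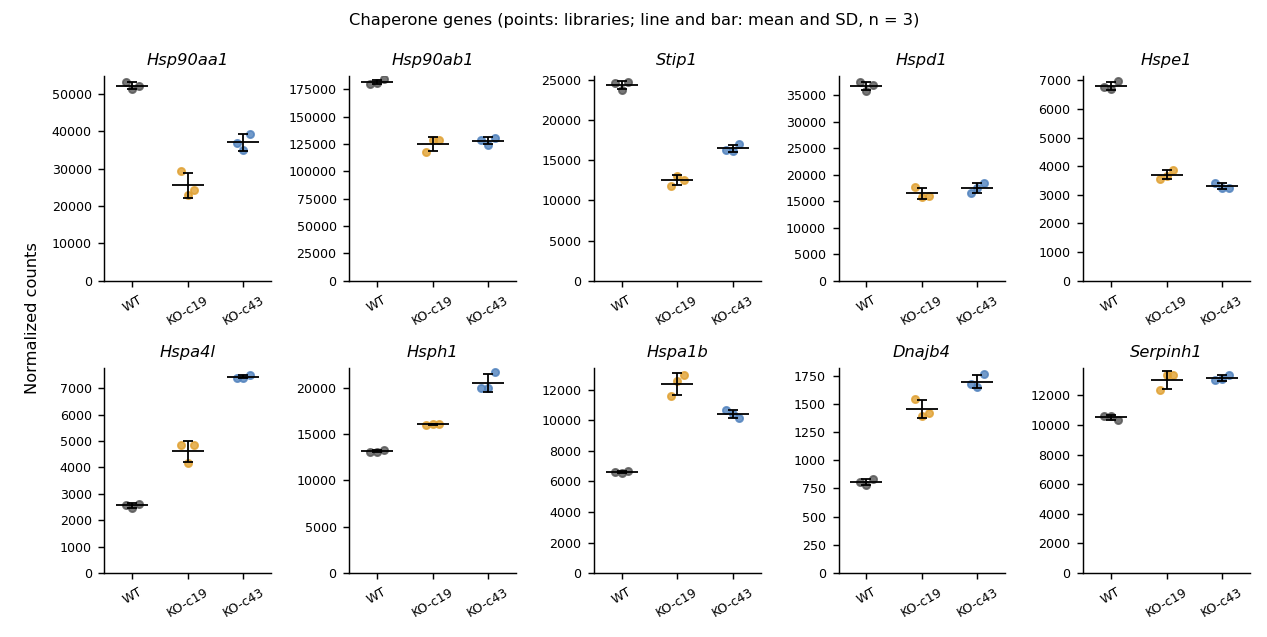
Normalized counts (vertical axis, from 0) of 10 chaperone genes in the 3 libraries of WT, KO-c19 and KO-c43, with a line and bar for mean and SD. Hsp90aa1, Hsp90ab1, Stip1, Hspd1 and Hspe1 are lower and Hspa4l, Hsph1, Hspa1b, Dnajb4 and Serpinh1 higher in all KO-c43 libraries than in all WT libraries.

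The heat shock element, searched on both strands as GAA, 2 of any base, TTC, 2 of any base and GAA, was in 12.8% of the windows of 28 genes found and in 0.603% of all windows. It was in 3 genes, of which Hsph1 rose and Chordc1 and Dnajb6 fell. The Hsph1 window (chr5:149636266-149636565, minus strand) is shown as the riser among them.
Hsph1: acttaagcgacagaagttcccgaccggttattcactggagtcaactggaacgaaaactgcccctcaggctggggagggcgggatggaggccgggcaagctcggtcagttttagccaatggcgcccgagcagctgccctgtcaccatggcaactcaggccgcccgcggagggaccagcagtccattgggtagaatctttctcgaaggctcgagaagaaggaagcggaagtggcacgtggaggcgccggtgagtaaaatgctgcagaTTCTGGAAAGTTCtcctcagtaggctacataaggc

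Transcripts for protein care in mitochondria were mostly lower. Of 23 genes 16 fell (69.6%, beside 34.0% of all tested genes), 2 rose (8.7%, beside 32.9%) and 5 did not pass. The median change was −0.23. Hspd1, the mitochondrial chaperonin HSP60, had 37507, 35914 and 36938 in WT and 16642, 17495 and 18440.2 in KO-c43 and fell by 1.07 ± 0.045 (SE) (limma adjusted p = 7.81e-13). Hspe1, its partner HSP10, which is transcribed from the same promoter region in the opposite direction, had 6757, 6685 and 6973 and 3429, 3243 and 3245 and fell by 1.04 ± 0.041 (SE) (limma adjusted p = 2.18e-13). Trap1, the mitochondrial HSP90, had 5824, 6137 and 5942 and 3869, 3947 and 3714 and fell by 0.63 ± 0.04 (SE) (limma adjusted p = 1.65e-10). No knockout library reached the WT range in these genes. Of 8 protease genes 4 fell (50%, beside 34.0% of all tested genes), Lonp1 and Clpp by 1.28-fold and 1.4-fold among them. All 5 genes of mitochondrial DNA upkeep fell (100%, beside 34.0% of all tested genes), Twnk, the helicase gene, by 1.37-fold. The genes that rose were Atf5 and Dele1, which carries a mitochondrial signal to the eIF2 kinase HRI and rose 1.49-fold.

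The NRF2 list was split within most functional groups, and only the NADPH-producing genes all moved in 1 direction. Nfe2l2, the NRF2 gene, had 4229, 4110.0 and 4192 in WT and 5828, 5824 and 5741 in KO-c43 and rose by 0.47 ± 0.038 (SE) (limma adjusted p = 4.95e-09), and its inhibitor Keap1 went from 3016, 3173 and 3042 to 4151, 4303 and 4115 and rose 1.36-fold. Both were high in all knockout libraries. Of 18 glutathione genes 11 rose (61.1%, beside 32.9% of all tested genes) and 6 fell (33.3%, beside 34.0%). All 6 NADPH-producing genes fell, from Me1 at 1.13-fold to Pgd at 1.4-fold.

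Classical targets of NRF2 disagreed in direction. Nqo1, a quinone reductase, had 182, 169 and 160.0 in WT and 278, 259 and 301 in KO-c43 and rose by 0.71 ± 0.085 (SE) (limma adjusted p = 8.96e-07). Hmox1, heme oxygenase 1, had 606, 596 and 643 and 339.9, 311 and 319 and fell by 0.93 ± 0.081 (SE) (limma adjusted p = 1.48e-08). Srxn1, sulfiredoxin, had 1672, 1622 and 1608 and 2911, 2799 and 3077 and rose by 0.84 ± 0.043 (SE) (limma adjusted p = 9.02e-12). Osgin1 fell 2.44-fold, and Gclc, the catalytic subunit of glutathione synthesis, rose 1.13-fold. Aldh3a1, an aldehyde dehydrogenase, was low in WT with 25.3, 24.4 and 24.1 and had 451, 521 and 502 in KO-c43, a rise by 4.26 ± 0.11 (SE) (limma adjusted p = 5.71e-16). The groups did not overlap for any gene of this paragraph.

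Enzymes that handle peroxides and superoxide moved in both directions. Of 9 thioredoxin and peroxiredoxin genes 3 rose (33.3%, beside 32.9% of all tested genes) and 5 fell (55.6%, beside 34.0%). Of 4 superoxide dismutase and catalase genes 2 rose and 2 fell (50% each). Gpx8, an ER glutathione peroxidase, had 1965, 1865 and 1872 in WT and 5567, 5580.2 and 5728 in KO-c43 and rose by 1.57 ± 0.05 (SE) (limma adjusted p = 1.3e-14). Prdx3, the mitochondrial peroxiredoxin, had 4627, 4745 and 4561 and 2371, 2229.7 and 2522 and fell by 0.97 ± 0.046 (SE) (limma adjusted p = 3.1e-12). Sod2, the mitochondrial superoxide dismutase, had 4865, 4919.8 and 4999 and 3074, 2948 and 3008 and fell by 0.71 ± 0.036 (SE) (limma adjusted p = 7.33e-12). Knockout and WT libraries were apart in all 3 genes. Among glutathione transferases, Mgst1 and Gstm2 rose 5.65-fold and 2.1-fold and Gsto1 fell 1.68-fold. Members of this family share sequence, and how reads shared between paralogs were counted is not given in the sources used here.

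Of 19 metal and iron genes 11 fell (57.9%, beside 34.0% of all tested genes) and 4 rose (21.1%, beside 32.9%). Fth1, the ferritin heavy chain, had 39786, 40515 and 41262 in WT and 112096, 104007 and 91733 in KO-c43 and rose by 1.34 ± 0.064 (SE) (limma adjusted p = 8.38e-10). Tfrc, the transferrin receptor, had 28198, 27667 and 26918 and 12370.1, 12591 and 13863 and fell by 1.09 ± 0.073 (SE) (limma adjusted p = 7.4e-08). The storage gene was higher and the uptake gene lower in every knockout library. Slc11a2, the iron importer DMT1, fell 1.68-fold. The metallothionein genes Mt1 and Mt2, which buffer zinc, had 1812, 1949 and 1997 and 1469, 1399 and 1464 in WT and 1319.7, 1285 and 1153 and 533, 476 and 485 in KO-c43, and fell 1.53-fold and 2.9-fold. The zinc exporter Slc30a1 had 1074, 984 and 1044 and 477, 554 and 555 and fell by 0.97 ± 0.064 (SE) (limma adjusted p = 3.23e-10), and the zinc importer Slc39a10 fell 1.53-fold.

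Hypoxia genes rose more often than they fell, 19 against 11 of 37 (51.4% and 29.7%, beside 32.9% and 34.0% of all tested genes). The median change was 0.16. Hif1a, the oxygen-labile factor, had 10019, 10032 and 10056 in WT and 9436, 9463 and 9534 in KO-c43 and did not pass (−0.08 ± 0.04 (SE), limma adjusted p = 0.075). Egln3, a HIF prolyl hydroxylase and itself a HIF target, had 1077, 1259.8 and 1180.2 in WT and 4179, 4286 and 4291 in KO-c43 and rose by 1.86 ± 0.05 (SE) (limma adjusted p = 1.47e-15). Pdk1, which keeps pyruvate from the mitochondrion, had 1744, 2002 and 1824 and 5030.0, 5198 and 4983 and rose by 1.45 ± 0.047 (SE) (limma adjusted p = 1.86e-14). Bnip3, a mitophagy receptor, had 877, 972 and 995 and 2568, 2754 and 2807 and rose by 1.51 ± 0.054 (SE) (limma adjusted p = 7.17e-14). The knockout libraries were all above WT for these 3 targets. Vegfa, the endothelial growth factor, rose 2.02-fold, P4ha1, a collagen prolyl hydroxylase, 2.16-fold, Pfkp, a phosphofructokinase, 1.9-fold, and the glucose transporter gene Slc2a1 1.25-fold.

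Other members of the same list were strongly lower. Car9, carbonic anhydrase 9, had 329, 310.0 and 323 in WT and 3.87, 0.902 and 1.05 in KO-c43, at most a few reads a library, and no fold is given for it. Car12, its paralog, had 2934, 2834 and 2945 in WT and 589, 635 and 642 in KO-c43 and fell by 2.22 ± 0.054 (SE) (limma adjusted p = 3.28e-16). Bhlhe40, a transcriptional repressor, had 6107, 6569 and 6706 and 1672, 1641 and 1744 and fell by 1.94 ± 0.047 (SE) (limma adjusted p = 3.04e-16). Ddit4, an inhibitor of mTORC1 and also an ATF4 target, had 1858, 2486 and 2479 and 1081, 1106 and 1146 and fell by 1.02 ± 0.098 (SE) (limma adjusted p = 4.18e-06). All these genes lay below WT in every knockout library. Of the 14 glycolysis genes 8 rose (57.1%, beside 32.9% of all tested genes) and 4 fell (28.6%, beside 34.0%). Aldoc, an aldolase, was lowest at a fall of 3.76-fold.

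**Figure D4:**
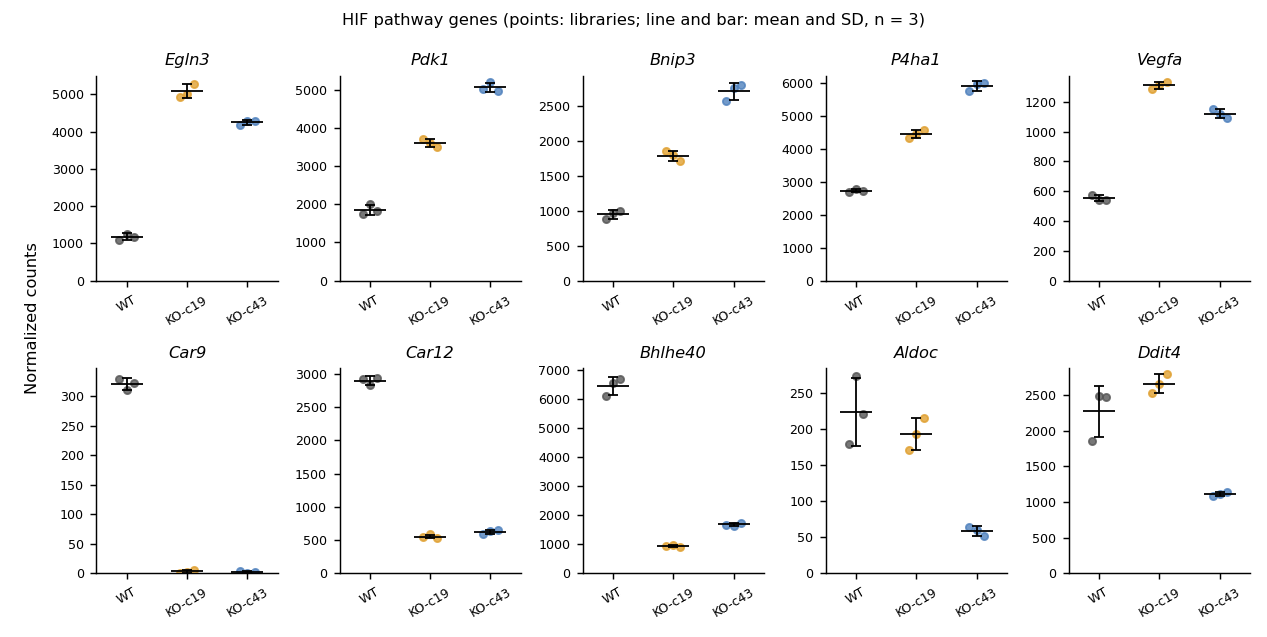
Normalized counts (vertical axis, from 0) of 10 HIF pathway genes in the 3 libraries of WT, KO-c19 and KO-c43, with a line and bar for mean and SD. The top row holds 5 genes that are higher in all KO-c43 libraries than in WT, the bottom row 5 that are lower, with Car9 near 0 in both knockout lines.

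The core of the hypoxia response element, searched as ACGTG on both strands, was in 52.1% of the windows of 33 genes found and in 19.6% of all windows. Of the 22 genes with it, 12 rose and 6 fell, and of those without it 6 rose and 4 fell. Over all tested genes 32.9% rose and 34.0% fell. Egln3 (chr12:54203825-54204124, minus strand), which rose, and Car9 (chr4:43506776-43507075, plus strand), which was near 0, both hold it.
Egln3: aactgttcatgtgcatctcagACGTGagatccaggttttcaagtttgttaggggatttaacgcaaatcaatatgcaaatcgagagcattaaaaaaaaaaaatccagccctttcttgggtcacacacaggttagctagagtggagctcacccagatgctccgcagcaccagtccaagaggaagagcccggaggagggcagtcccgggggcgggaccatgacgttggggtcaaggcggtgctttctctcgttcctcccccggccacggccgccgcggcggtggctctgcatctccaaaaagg
Car9: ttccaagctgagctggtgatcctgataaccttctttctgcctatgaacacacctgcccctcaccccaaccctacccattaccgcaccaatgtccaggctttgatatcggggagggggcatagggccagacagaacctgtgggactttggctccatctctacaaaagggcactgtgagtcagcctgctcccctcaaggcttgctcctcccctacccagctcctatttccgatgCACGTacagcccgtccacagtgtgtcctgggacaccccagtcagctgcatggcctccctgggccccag

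Of 31 genes in the p53 list 17 fell (54.8%, beside 34.0% of all tested genes) and 9 rose (29%, beside 32.9%). There were 8 falls of at least 2-fold (6.15% of all tested genes fell as far), and the median change was −0.26. Trp53 had 1817, 1942 and 1845 in WT and 2088, 1999.5 and 2043 in KO-c43 and rose by 0.13 ± 0.045 (SE) (limma adjusted p = 0.0175). The call was lost without KO-c43 replicate 1 (limma adjusted p = 0.0674), without WT replicate 1 (0.0726) and without WT replicate 3 (0.0577). Cdkn1a, the cell cycle inhibitor p21, had 581, 553 and 489.8 in WT and 1027, 994 and 1032 in KO-c43 and rose by 0.91 ± 0.065 (SE) (limma adjusted p = 7.92e-10), and Mdm2, the p53 ubiquitin ligase, rose 1.18-fold. Both were high in every knockout library. These 2 genes moved against most of the list. The values are transcript levels, and neither the p53 protein nor its activity was measured.

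Gadd45b, an arrest and stress-kinase adaptor gene, had 2630.2, 2689 and 2712 in WT and 256, 245 and 238 in KO-c43 and fell by 3.44 ± 0.063 (SE) (limma adjusted p = 7.07e-18). Plk2, a polo-like kinase, had 6636, 6297 and 6135 and 2139.8, 2266 and 2243 and fell by 1.52 ± 0.043 (SE) (limma adjusted p = 3.05e-15). Perp, a desmosome and death gene, had 10906, 10925 and 10454 and 2361, 2446 and 2420.1 and fell by 2.16 ± 0.036 (SE) (limma adjusted p = 1.99e-18). Every knockout library was below WT in these genes. Of the 6 epithelial markers given above 4 fell with Perp and the keratin genes Krt8 and Krt18 rose, and their part was not tested. Aen, a nuclease induced by p53, fell 2.26-fold, Tigar, a sugar phosphatase, 2.16-fold, and the death receptor gene Fas, low in WT at 129.9, 123 and 97.5, had 6.78, 6.32 and 11.5 in KO-c43.

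Changes of DNA repair transcripts were mostly below 2-fold. Of 58 tested genes 17 rose (29.3%, beside 32.9% of all tested genes), 26 fell (44.8%, beside 34.0%) and 15 did not pass, and the median was −0.05. None rose by 2-fold or more (7.9% of all tested genes did) and 1 fell by as much (6.15% of all). That gene was Lig4, the ligase of end joining, with 932, 966 and 963 in WT and 456, 464 and 462 in KO-c43, a fall by 1.05 ± 0.079 (SE) (limma adjusted p = 1.82e-09). Chek1, the checkpoint kinase, fell 1.56-fold, Xrcc6, the Ku70 gene, 1.52-fold, and Apex1, the abasic site nuclease, 1.5-fold. Bard1, the partner of BRCA1, had 3740.0, 3795 and 3869 and 2507, 2616 and 2643 and fell 1.47-fold. Ercc1, an excision repair nuclease subunit, had 4416, 4579 and 4661 and 7435, 7439 and 7623 and rose by 0.72 ± 0.038 (SE) (limma adjusted p = 1.19e-11). Knockout and WT libraries were apart for Lig4, Bard1 and Ercc1. Atm, the kinase that answers double-strand breaks, did not pass (−0.09 ± 0.043 (SE), limma adjusted p = 0.0896).

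The NF-kappaB list had the lowest median of the 15, −0.63. All 6 inhibitor and feedback genes fell, as did 4 of 6 subunit and cofactor genes (66.7%) and 8 of 10 cytokine genes (80%), beside 34.0% of all tested genes. Cxcl16, a membrane-bound chemokine, had 6312, 6410.1 and 6511 in WT and 295, 299 and 265 in KO-c43 and fell by 4.48 ± 0.055 (SE) (limma adjusted p = 1.22e-19). Cxcl1, a neutrophil attractant, had 1164, 1159.9 and 1068 and 393, 397 and 427 and fell by 1.48 ± 0.065 (SE) (limma adjusted p = 1.19e-12). Tnip1, which restrains NF-kappaB with A20, had 2458, 2535 and 2493 and 1097, 1161 and 1115 and fell by 1.15 ± 0.048 (SE) (limma adjusted p = 5.44e-13). For all 3 the knockout libraries lay below WT. Nfkbia, the IkappaB-alpha gene, and Tnfaip3, the A20 gene, fell 1.27-fold and 1.46-fold, and Rel, a subunit, fell 2.23-fold. The chemokine gene Cxcl5 fell 2.13-fold. Members that rose were the adhesion gene Vcam1, with 1085, 1056 and 1027 in WT and 2645, 2763 and 2992 in KO-c43 (1.40 ± 0.067 (SE), limma adjusted p = 3.56e-12), the iron-binding lipocalin gene Lcn2, and the colony-stimulating factor genes Csf1 (1.2-fold) and Csf3 (1.34-fold). Vcam1 and Lcn2 were high in every knockout library.

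Of 41 interferon-related genes 22 fell (53.7%, beside 34.0% of all tested genes) and 9 rose (22%, beside 32.9%), with a median of −0.31. Falls were found in 4 of 7 sensor genes (57.1%), 3 of 7 factors (42.9%), 11 of 22 effectors (50%) and 4 of 5 antigen presentation genes (80%). Among the sensors of RNA, Tlr3, the endosomal receptor of double-stranded RNA, had 1935, 1823 and 1876 in WT and 315, 305 and 291 in KO-c43 and fell by 2.63 ± 0.063 (SE) (limma adjusted p = 2.75e-16). Ifih1, the MDA5 gene, had 641, 617 and 659 and 131, 127 and 123 and fell by 2.32 ± 0.11 (SE) (limma adjusted p = 1.74e-12). Ddx58, the RIG-I gene, had 1489.7, 1538 and 1428 and 859, 871 and 850.3 and fell by 0.79 ± 0.049 (SE) (limma adjusted p = 1.35e-10). No knockout library reached WT in these genes. Bst2, which tethers virus particles, fell 2.67-fold, and Psmb8, an immunoproteasome subunit, 12.2-fold. Of the effectors that rose, Ifit2 went from 197, 218 and 222 to 413, 397 and 435 (0.97 ± 0.11 (SE), limma adjusted p = 3.99e-07), above WT in every library, and Ifi27 rose 2.39-fold. Isg15 did not pass (−0.34 ± 0.18 (SE), limma adjusted p = 0.111). Irf7 rose 1.35-fold (limma adjusted p = 0.0138), a call lost without KO-c43 replicate 2 (limma adjusted p = 0.0677) and under quantile normalization (0.073).

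In the AP-1 and stress kinase list single genes changed far in both directions around a median of −0.09. Of 39 genes 14 rose (35.9%, beside 32.9% of all tested genes) and 20 fell (51.3%, beside 34.0%). Egr3, an immediate early zinc finger factor, had 93.8, 96.6 and 79.99 in WT and 2039, 1989.7 and 2079.7 in KO-c43 and rose by 4.49 ± 0.072 (SE) (limma adjusted p = 1.61e-18). Jun had 4202, 4149 and 4306 and 8145, 8640.3 and 8135 and rose by 0.98 ± 0.042 (SE) (limma adjusted p = 8.93e-13), and Fosl1, a FOS-related partner, had 5799, 5494 and 5753 and 15134, 14809 and 13474 and rose by 1.35 ± 0.054 (SE) (limma adjusted p = 2.56e-12). The knockout libraries were above WT for these genes. Junb fell 2.54-fold, and Myc, the growth factor-induced oncogene, had 26766, 27879 and 28706 in WT and 13814, 13259 and 12860.0 in KO-c43 and fell 2.09-fold. Of the stress kinases, Map3k5 (ASK1) had 943, 933 and 908 and 2613, 2760.2 and 2648 and rose by 1.53 ± 0.043 (SE) (limma adjusted p = 2.4e-15), and Mapk13, a p38 kinase, had 1039, 1124 and 996 and 216, 207 and 225 and fell by 2.28 ± 0.066 (SE) (limma adjusted p = 3.6e-15). Mapk14, the main p38 gene, showed −0.07 ± 0.037 (SE) (limma adjusted p = 0.114). Dusp6, a phosphatase of ERK, had 5907, 6421 and 6085 and 16053, 16083 and 16481 and rose by 1.40 ± 0.037 (SE) (limma adjusted p = 9.09e-16), and Dusp10, which acts on JNK and p38, rose 2.46-fold.

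Autophagy and lysosome genes mostly rose, 31 of 47 (66%, beside 32.9% of all tested genes) with 9 falling (19.1%, beside 34.0%). The median was 0.28. Mitf, a factor of the TFEB family, had 185, 171 and 151 in WT and 505, 493 and 512 in KO-c43 and rose by 1.57 ± 0.08 (SE) (limma adjusted p = 8.07e-12), and Tfeb rose 1.26-fold. Ulk2, an initiating kinase, had 1528, 1541 and 1444 and 3644, 3529 and 3648 and rose by 1.26 ± 0.041 (SE) (limma adjusted p = 1.59e-14), and Ulk1 rose 1.94-fold. Every knockout library was higher in these genes. Of the 10 cargo receptor and LC3-family genes 9 rose (90%, beside 32.9% of all tested genes). Calcoco1, a receptor for the ER, had 327, 341 and 386 and 1057, 1087 and 1059.8 and rose by 1.61 ± 0.07 (SE) (limma adjusted p = 1.08e-12). Map1lc3a, an LC3 gene, rose 3.77-fold, and Sqstm1, the p62 gene, had 9148, 9459 and 9288 and 14827, 14262 and 15391 and rose 1.59-fold. Of 11 lysosome genes 9 rose (81.8%), among them Lamp2 at 1.82-fold and the protease gene Ctsd at 1.85-fold. The core machinery stood near the shares of all tested genes, with 6 of 15 genes rising (40%, beside 32.9%) and 5 falling (33.3%, beside 34.0%). Becn1 at 1.27-fold and Atg5 at 1.29-fold were among the falls. The deepest fall of the list was that of Castor1, an arginine sensor of the mTORC1 pathway, at 1.83-fold.

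Osmotic stress genes rose in 7 of 13 cases (53.8%, beside 32.9% of all tested genes) and fell in 4 (30.8%, beside 34.0%). The median was 0.28. Nfat5, the tonicity factor, had 10613, 9992 and 11182 in WT and 19829, 20781 and 19577 in KO-c43 and rose by 0.92 ± 0.042 (SE) (limma adjusted p = 1.64e-12). Slc5a3, the inositol importer and a classical NFAT5 target, had 9992, 9611 and 10052 and 33078, 33594 and 34639 and rose by 1.77 ± 0.036 (SE) (limma adjusted p = 2.63e-17). Aqp1, a water channel, had 204, 263 and 249.8 and 1259.7, 1192 and 1401 and rose by 2.43 ± 0.082 (SE) (limma adjusted p = 1.06e-13). The groups were apart in all 3. Other targets of NFAT5 fell, Akr1b3, aldose reductase, 1.46-fold and the taurine importer gene Slc6a6 1.33-fold.

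Cell death regulators rose in 19 of 31 cases (61.3%, beside 32.9% of all tested genes) and fell in 10 (32.3%, beside 34.0%). Members moved on both the protective and the killing side, with a median of 0.33. Of 7 survival genes 6 rose (85.7%, beside 32.9%). Bcl2l1, the BCL-XL gene, had 4406, 4537 and 4407 in WT and 7791, 7534 and 8121 in KO-c43 and rose by 0.81 ± 0.039 (SE) (limma adjusted p = 4.11e-12). Cflar, the caspase 8 inhibitor cFLIP, rose 1.67-fold and Bcl2 1.25-fold. Mcl1 rose 1.08-fold (limma adjusted p = 0.0155), a call lost without KO-c43 replicate 3 (limma adjusted p = 0.0925), without WT replicate 2 (0.0503) and without WT replicate 3 (0.08). On the killing side, Bcl2l11, the BIM gene, had 1979, 2119.9 and 2136 and 4191, 4122 and 4009 and rose by 0.98 ± 0.041 (SE) (limma adjusted p = 4.98e-13), while Bid, which had 2164, 2291 and 2256 and 1218, 1125 and 1201, fell by 0.92 ± 0.048 (SE) (limma adjusted p = 1.04e-11). Bak1, a pore-forming effector, fell 1.86-fold. Casp12, an ER-associated caspase in mice, was low in WT with 23.5, 32.2 and 35.1 and had 479, 489 and 528 in KO-c43, a rise by 4.02 ± 0.13 (SE) (limma adjusted p = 2.59e-14). Knockout and WT libraries were apart for Bcl2l1, Cflar, Bcl2, Bcl2l11, Bid, Bak1 and Casp12.

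Outside the lists, the widest falls were taken among protein-coding genes with a mean of at least 200 that an earlier account does not name. They included several genes that were silent in KO-c43. Bcl11a, a zinc finger repressor gene, had 765, 708 and 784 in WT, whereas every KO-c43 library lists it at 0. The same was true of Rapgef5, an exchange factor for RAP GTPases, with 473, 465 and 491 in WT, of Rasef, a RAB-like GTPase, with 325, 316 and 309, of the desmosomal cadherin gene Dsc2, with 312, 317 and 268, and of the creatine synthesis gene Gatm, with 229, 229 and 241. Fam83b had 359, 346 and 311 in WT and 0, 0 and 1.05 in KO-c43, and Bst1, a surface ADP-ribosyl cyclase, 304, 347 and 309 and 0.968, 0 and 0. Lcp1, the actin bundler L-plastin, which is abundant in leukocytes and in many tumour lines, had 1899, 2007 and 1989 and 4.84, 2.71 and 7.33. The tight junction gene Marveld3 and the CDC42 effector gene Cdc42ep5 had 513, 518 and 547 and 551, 554 and 551 in WT and 1.94, 0.902 and 1.05 and 3.87, 1.80 and 0 in KO-c43. No folds are given for these 10 genes, whose knockout values were 0 or a few reads. Of the 6 epithelial markers 4 also fell in KO-c43, whereas Krt8 and Krt18 rose, and their part in the values of the junction genes Dsc2 and Marveld3 was not tested.

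The widest rises outside the lists, among protein-coding genes chosen in the same way, started from very low values in WT. Tnfrsf19, a receptor of the TNF family, had 1.80, 2.22 and 1.10 in WT and 515, 531 and 591 in KO-c43, and Sele, E-selectin, which is known from activated endothelium, 0.902, 0 and 1.10 and 243, 239 and 273. The endothelial marker Pecam1 was at most 2.71 in KO-c43. Gpnmb, a lysosome-linked membrane protein, had 1.80, 4.44 and 9.86 in WT and 539, 509 and 475 in KO-c43. Gas1, a growth arrest gene, had 18.9, 9.99 and 10.96 in WT and 575, 585 and 606 in KO-c43 and rose 42.8-fold (limma adjusted p = 5.39e-14). Serpine2, a protease inhibitor gene, had 8.12, 17.8 and 15.3 and 567, 592 and 621 and rose 42.2-fold (limma adjusted p = 1.35e-11). Adamts9, a secreted metalloprotease gene, had 9.02, 11.1 and 5.48 and 306, 307 and 303 and rose 33.2-fold. The libraries of the groups were far apart in all these genes. Itgb7, a leukocyte integrin subunit gene, had 31.6, 34.4 and 38.4 in WT and 1089, 1026 and 1102 in KO-c43 and rose 30.1-fold, while the leukocyte marker Ptprc stayed at 1.80 or less. Gprc5b, an orphan receptor gene, rose 27.1-fold from 29.8, 32.2 and 35.4 to 942, 882 and 885. Zfhx4, a homeodomain zinc finger gene, had 2.71, 3.33 and 5.48 and 339, 369 and 340.3, and Gprin3, a G protein regulator gene, 3.61, 4.44 and 4.38 and 317, 356 and 323.

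KO-c43 and KO-c19 were compared directly to see which of these changes differed between the lines. The comparison called 40.1% of tested genes, 21.9% higher and 18.2% lower in KO-c43. With each library scaled by its total the split turned, with 2961 genes higher and 4173 lower in KO-c43 in place of 3730 and 3096, so the split has no fixed direction. Both comparisons with WT share the WT libraries, so they are set side by side and not correlated. For the integrated stress response, 28 of 49 genes were higher and 6 lower in KO-c43 than in KO-c19, and 24 and 6 with scaling by totals. Mthfd2 had 1084, 997 and 989 in KO-c19 and differed by 0.82 ± 0.045 (SE) (limma adjusted p = 1.2e-10), and Asns had 2134, 2313 and 2233 and differed by 0.60 ± 0.043 (SE) (limma adjusted p = 3.64e-09). Both genes were below WT in both lines and further below in KO-c19. Of 39 AP-1 list genes 20 were lower and 9 higher in KO-c43 than in KO-c19, and of 47 autophagy list genes 18 and 9. Over all tested genes 18.2% were lower and 21.9% higher. With scaling by totals the AP-1 list had 21 lower and 6 higher, and the autophagy list 22 and 7.

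Among stress genes with a group mean of at least 200, those that differed most between the lines were Stc2, Vcam1, Lcn2, Cxcl16, Mt2 and Ifit2. They were picked by this difference, so its p-value is no further support. Stc2, listed at 0 in KO-c43, had 227, 219 and 212 in KO-c19, above WT. Vcam1 had 265, 285 and 322 in KO-c19, where it fell 3.64-fold against WT, and differed by 3.27 ± 0.067 (SE) (limma adjusted p = 2.36e-16). Mt2 had 2628, 2665 and 2602 in KO-c19, where it rose 1.82-fold, and differed by −2.40 ± 0.051 (SE) (limma adjusted p = 3.09e-16). For Vcam1 and Mt2 the lines lay on opposite sides of WT. Cxcl16 had 1494, 1551 and 1677 in KO-c19, between WT and KO-c43, and differed by −2.45 ± 0.055 (SE) (limma adjusted p = 5.61e-16). Lcn2 had 199.7, 181 and 228 in KO-c19, 9.02, 9.99 and 17.5 in WT and 30.98, 31.6 and 42.9 in KO-c43, and differed by −2.51 ± 0.23 (SE) (limma adjusted p = 8.4e-08). Ifit2 had 122, 95.2 and 92.4 in KO-c19, below WT. Nqo1 and Cdkn1a, which rose in both lines, were lower in KO-c43 than in KO-c19, with differences of −1.97 ± 0.085 (SE) (limma adjusted p = 4.35e-12) and −0.91 ± 0.065 (SE) (limma adjusted p = 3.36e-09).

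**Figure D5:**
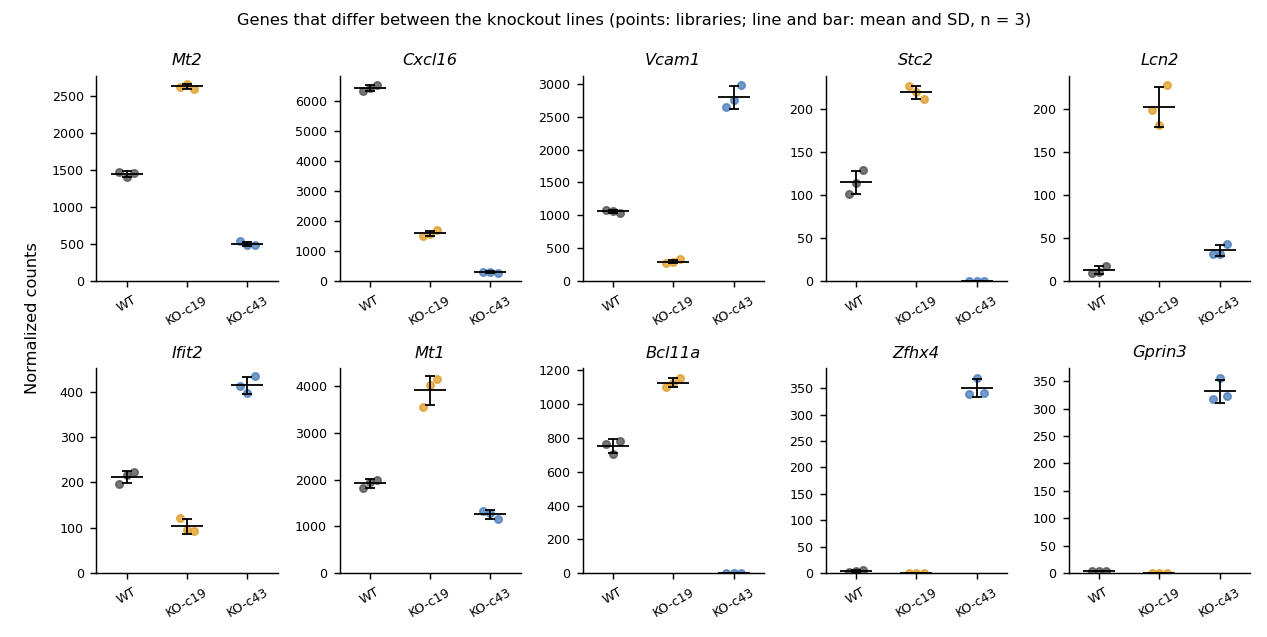
Normalized counts (vertical axis, from 0) of 10 genes that differ between the knockout lines, in the 3 libraries of WT, KO-c19 and KO-c43, with a line and bar for mean and SD. Mt2, Mt1, Stc2 and Bcl11a are above WT in KO-c19 and below it in KO-c43, and Vcam1 and Ifit2 are the other way round.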

How the data were processed

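The deposited table holds a signal for each gene, namely read counts that the authors normalized, and Partek, STAR, cutadapt and mm10 are named, without versions, in the submitters' processing notes. The counting tool and the gene annotation are likewise not given in the sources used here. Libraries were stranded and depleted of ribosomal RNA, per the labels' protocols. Between 82.8% and 83.8% of low values lay within 0.1 of a whole multiple of 1 read, so the values were treated as normalized and no count model was used.

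The authors' scaling was kept and values were used as log2(value + 1). One limma fit (limma 3.58.1, R 4.3.3, statmod 1.5.0, data.table version 1.17.8) over all 9 libraries held 3 group means, with intensity trend and robust empirical Bayes, two-sided, Benjamini-Hochberg adjustment over the 17020 tested genes of each comparison and a threshold of 0.05. All 3 groups share 1 estimate of the spread (median residual SD 0.0881). Gene starts in the table matched GRCm38 for 562 of 22292 identifiers and lengths for 22023, so only promoter coordinates, from RefSeq on GRCm38.p6, are printed. Of the symbols, Aldoa has 2 rows and the higher was used. Genes were named by a rule: key regulators, in each list up to 4 genes of smallest adjusted p, the 10 widest rises and falls of genes that an earlier account does not name, and the 6 widest differences between lines, with a mean of at least 200. Other members were named for their role after their values were seen, and values of some members are not reported here. The members and lists were chosen with earlier results of these data known. On simulated data with 16575 genes, KO-c43 against WT, limma called 64.6%, 73.2% and 97.3% of genes set to change by 0.5, 1 and 2 on the log2 scale, and 10 of 16381 unchanged genes. Only 65, 56 and 73 genes were set to change, in KO-c43 alone, with means and a capped spread from WT. In the data 66.9% of genes were called, so the simulated rates need not hold there. Alternatives were pseudocounts of 0.5 and 5, no filter, a filter at 50, scaling by totals, quantile normalization, another empirical Bayes setting, the 6 libraries alone, a block for the replicate number, and each library left out in turn. Figures and tables used Python 3.11.15, pandas 2.3.3, numpy 2.4.6, scipy 1.17.1 and matplotlib 3.10.9.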

Additional observations from a re-analysis of the deposited data

Results flagged for a closer look

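For 8 of the genes named by the rule the knockout lines were called on opposite sides of WT, and the difference between the lines also passed. Mt2, Vcam1, Stc2 and Ifit2 were named for that difference, and Bcl11a, Zfhx4 and Gprin3 for their wide change in KO-c43. For these genes the test between the lines is therefore no further support. Lower in KO-c43 and higher in KO-c19 than in WT were Mt1 (KO-c43 minus KO-c19 −1.64 on the log2 scale, limma adjusted p = 2.86e-12), Mt2 (−2.4, 3.09e-16), Stc2 (−7.78, 5.54e-15) and Bcl11a (−10.1, 2.47e-19). Stc2 and Bcl11a were listed at 0 in KO-c43, so their fitted differences depend on the pseudocount and are no bound. Higher in KO-c43 and lower in KO-c19 were Vcam1 (3.27, 2.36e-16) and Ifit2 (2.01, 1.01e-10). Zfhx4 (8.45) and Gprin3 (8.38) were called in the same directions. Zfhx4 and Gprin3 were listed at 0 in KO-c19, stood at a few reads in WT and passed the filter only through KO-c43. Their side of WT in KO-c19 therefore rests on a few reads, and only their values in KO-c43 stand apart from the floor. Each knockout line is 1 line, and the effect of the knockout and the history of a line cannot be told apart within it.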

How the results depend on the processing

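Over all alternatives the counts of genes, and of list members that rose or fell against WT, stayed within 1.5 times those reported, and no gene named by the rule turned its direction. Of the list medians that of the NRF2 list, 0.006, lay near 0 and turned to −0.03 with a filter at 50. With 1 library left out the NRF2 median ran from −0.03 to 0.01. Other list medians also shifted. Under quantile normalization the ER unfolded protein response went from 0.02 to 0.1. The integrated stress response went from −0.36 to −0.29 and the cytosolic heat shock list from −0.09 to −0.04. Under scaling by totals mitochondrial protein stress went from −0.23 to −0.19. Not all shifts of list medians are given here. Between the lines, list counts were recomputed under scaling by totals; DNA damage genes higher in KO-c43 than in KO-c19 went from 17 to 8, and mitochondrial protein stress genes from 7 to 4 higher and from 4 to 8 lower. Leaving out 1 library gave 5253 to 5768 genes that rose and 5456 to 5996 that fell in KO-c43, 1332 to 1384 and 1041 to 1074 by at least 2-fold, and 3241 to 4061 higher and 2530 to 3460 lower in KO-c43 than in KO-c19. Scaling by totals gave 6094 rising and 5243 falling genes and shifted the median of all tested genes from −0.0003 to 0.0447. With the replicate number as a block, 5552 genes rose and 5756 fell, 1343 and 1046 by at least 2-fold, and 3685 were higher and 3010 lower than in KO-c19; the correlations of same-numbered libraries were −0.052, 0.024 and −0.057, so the numbers share no detectable pairing. Beside Hspa5, Trp53, Irf7 and Mcl1, 4 genes that missed the threshold passed it under some alternatives. These were Phgdh (−0.11 without KO-c43 replicate 3, limma adjusted p = 0.0463), Hif1a (−0.08 in the 6 libraries alone, 0.0146), Isg15 (−0.46 under quantile normalization, 0.0344) and Atm (−0.12 without WT replicate 2, 0.036). The causes were not tested. Genes near 10 normalized counts rest on about 10 reads, and for them a change that was not called may have been missed at this depth. Detection by expression level was not tested.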

Other observations

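Several list members changed far from low levels and lie outside the naming rule; they were chosen after their values were seen. Sod3, the extracellular superoxide dismutase, had 0.902, 5.55 and 2.19 normalized counts in WT and 101, 89.3 and 89.01 in KO-c43. Casp1, the inflammatory caspase, had 3.61, 0 and 3.29 and 66.8, 65.9 and 94.2, while Gsdmd, which caspase 1 cleaves in pyroptosis, had 212, 211 and 211 and 92.95, 77.6 and 78.5 and fell by 1.34 ± 0.1 (SE) (limma adjusted p = 2.88e-09). In KO-c19 Gsdmd had 298, 346 and 351, above WT, and the lines differed by −1.99 ± 0.1 (SE) (limma adjusted p = 6.5e-11). Bik, a killer of the BH3 group, had 8.12, 17.8 and 13.1 in WT, 34.9, 38.8 and 33.5 in KO-c43 and 1.64, 1.01 and 0 in KO-c19.

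Among the falls, Trp63, the epithelial member of the p53 family, had 22.6, 22.2 and 15.3 in WT and 1.94, 0 and 0 in KO-c43. Adm, a vasodilator peptide gene of the hypoxia list, had 32.5, 56.6 and 54.8 and 1.94, 0 and 1.05, and Slc40a1, the iron exporter ferroportin, 39.7, 39.96 and 17.5 and 0.968, 0.902 and 2.09. Icam1, an adhesion gene, had 70.2, 77.4 and 79.00 and 2.90, 3.61 and 2.09. Batf3, an AP-1 family factor, had 68.6, 79.9 and 74.5 and 3.87, 7.22 and 8.38 and fell by 3.38 ± 0.27 (SE) (limma adjusted p = 4.55e-09). In each of these genes the 3 KO-c43 libraries lay below the 3 WT libraries.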
